A study of Mus musculus with 18 samples.

Results

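The 32 genes described here mark cell lineages other than astrocytes, and they were measured in cultures labelled as mouse cortical astrocytes. They were taken as a given list and matched from Entrez identifiers to mouse symbols in both deposited count tables, where all 32 were found among 22078 genes. Of these, 8 mark neurons, 7 the oligodendrocyte lineage, 6 microglia, 3 endothelium, and 8 fibroblasts and mural cells, the contractile cells and pericytes that wrap vessels. RNA had been sequenced from 18 bulk libraries of cells transfected with a plasmid and exposed 7 days later, for 90 min, to deschloroclozapine (DCZ) at 8 µM. The receptors were designer receptors (DREADDs), muscarinic receptors altered so that DCZ activates them. In 2 groups the RNA was taken 3 days later, after a change to medium without ligand: cells with hM3Dq, which couples to Gq, and control cells with mCherry. In 4 groups it was taken at 90 min: cells with hM3Dq, with rM3Ds, which couples to Gs, with hM4Di, which couples to Gi, and control cells with EGFP. Each group had 3 libraries. Controls also received DCZ, no group carried a receptor without DCZ, and the labels do not say what share of the cells took up a plasmid or whether libraries came from separate cultures, so p-values measure the spread between these libraries, which may be technical. The strain and age of the donor mice are not given in the sources used here.

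Astrocytes taken from newborn cortex are grown in serum, and such cultures are known to carry along other cells of the brain and its meninges to varying extents. Microglia, oligodendrocyte precursors and meningeal or perivascular fibroblasts are the usual companions, while mature neurons seldom survive passage. Each lineage has genes that mark it well in tissue, such as Cx3cr1 for microglia or Cdh5 for endothelium, but several members of the list are also used by cells outside the lineage named, among them Map2, Cspg4, Pdgfra and Pdgfrb.

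Library totals ranged over 16067367 to 25222365 estimated counts. Levels are given as CPM, counts brought to a common library total and scaled by the TMM method over all 18 libraries, and a floor of 3 counts in a library, which covers counting error only, corresponded to 0.118 to 0.186 CPM. Of 15 astrocyte markers, 14 were at or above the floor in every library and only Gjb6, an astrocyte connexin, was below it in every one. The 15 summed to 878 to 1424 CPM, led by the transcription factor Sox9 at 109 to 318 CPM and the bicarbonate transporter Slc4a4 at 110 to 387 CPM. Gfap, an intermediate filament protein of astrocytes, was low, with a lowest value of 1.74, a median of 2.72 and a highest value of 23.1 CPM. At 90 min the libraries EGFP 1, rM3Ds 2 and rM3Ds 3 stood apart from the others on a first principal component holding 52.5% of the variance, and hM4Di 1 lay between. On the corresponding component of the 3-day libraries, which held 56.7%, it was mCherry 3 that lay far from the other 5. Fold changes that rest on these libraries, and the members' median fold changes, are given with and without them.

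Across the 32 members the lineages separated into well detected and nearly absent ones. The fibroblast and mural list was high, led by Pdgfrb, Grem1 and Twist1. The neuronal list was carried by Map2 alone in most libraries, and the oligodendrocyte list by Mbp, Pdgfra and Cspg4. The microglial and endothelial lists stayed near the floor. All 32 together took 0.0564% to 0.139% of a library's counts, and Pdgfrb alone made up a large part of this, since without it the range was 0.027% to 0.0868%.

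Of the 32 members, 10 were at or above the floor in all 18 libraries, namely Map2, Pdgfra, Cspg4, Mbp, Pdgfrb, Scara5, Grem1, Foxc1, Foxd1 and Twist1. Another 4 were below it in every library, namely Dcx, Ptprc, Kcnj8 and Dpt, and 18 were below 1 CPM in every library. Only 8 averaged over 10 CPM. At 3 days 17 members were below the floor in all 6 libraries and 11 had no count in any of them, whereas at 90 min 4 were below it in all 12 libraries. The number of members at or above the floor was 10 to 13 in a library at 3 days and 15 to 24 in a library at 90 min. With no filter on low counts, the fits over all genes held 16398 genes at 3 days, from 6 libraries, and 20063 at 90 min, from 12 libraries. Whether the share of all genes at or above the floor in a library also differed was not tested. The times were deposited as separate tables, so time and table cannot be told apart in these counts. In bulk RNA, fewer cells of a type and less RNA per cell cannot be told apart.

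**Figure D1:**
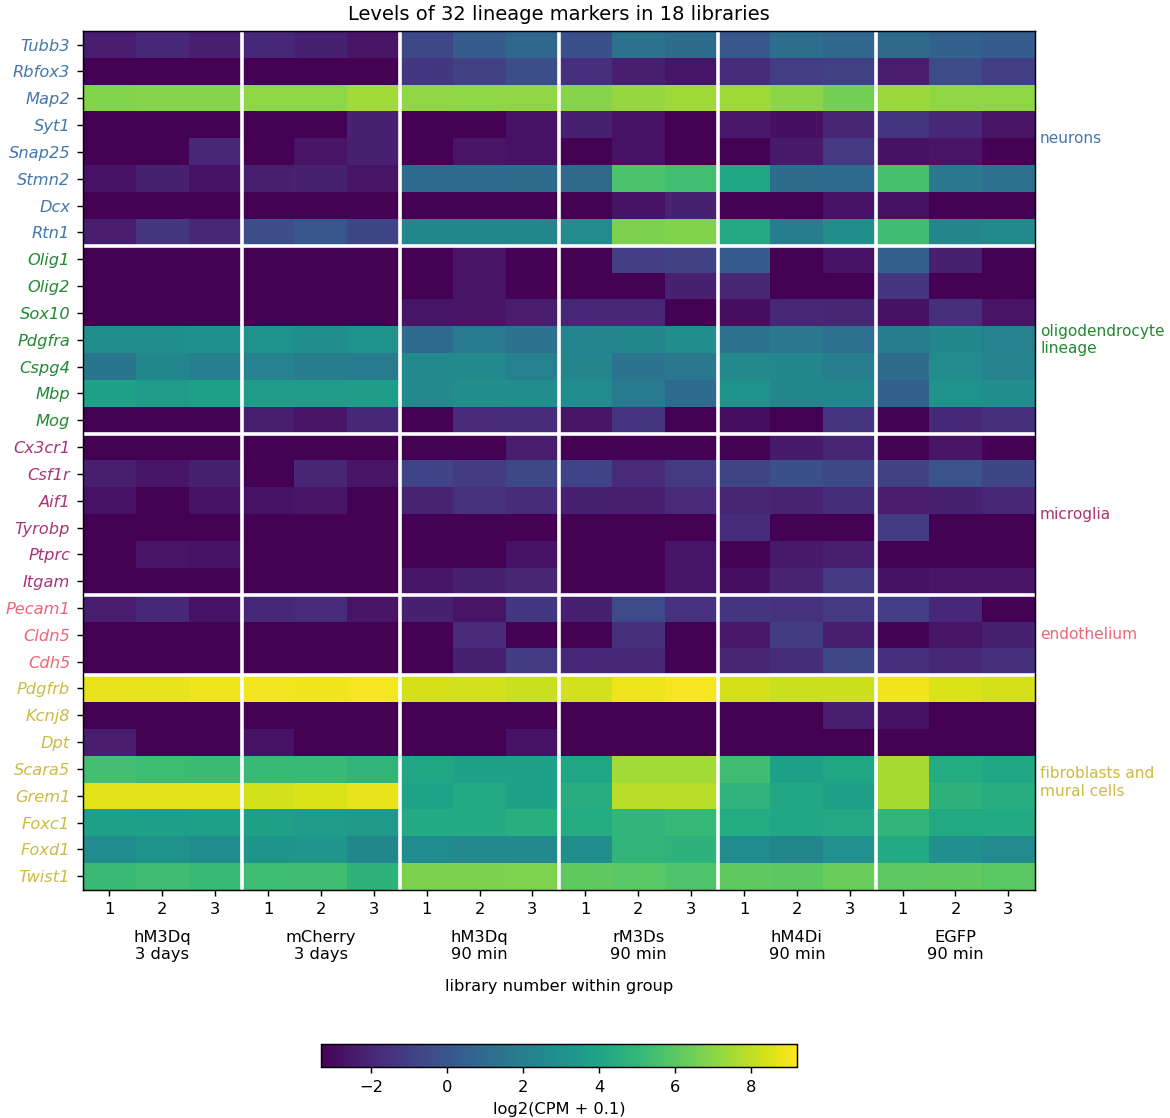
Each row is one of the 32 members, grouped by lineage, each column one of the 18 libraries, grouped by receptor or control and by time, and the colour gives log2(CPM + 0.1). Pdgfrb and Map2 are high in every library, Grem1 is high in all 6 libraries at 3 days, and the microglial and endothelial rows are dark throughout.

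Levels of different genes were compared per kilobase of the longest protein-coding transcript of each gene in GENCODE M21, so these values are approximate where a shorter isoform is used. On this scale Pdgfrb had the highest mean level over the 18 libraries, 74.2 CPM per kilobase, followed by Grem1 with 41.9, Twist1 with 39.3, Map2 with 22.1 and Scara5 with 13.7. Mbp, first of the oligodendrocyte list, reached 1.67 CPM per kilobase, Aif1, first of the microglial list, 0.132, and Pecam1, first of the endothelial list, 0.0579. For comparison Sox9 averaged 64.5 CPM per kilobase and Gfap 2.02. Pdgfrb therefore lay beside Sox9, which had the highest mean CPM, not scaled by length, of the 15 astrocyte markers. The highest microglial and endothelial members lay below Gfap.

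**Figure D2:**
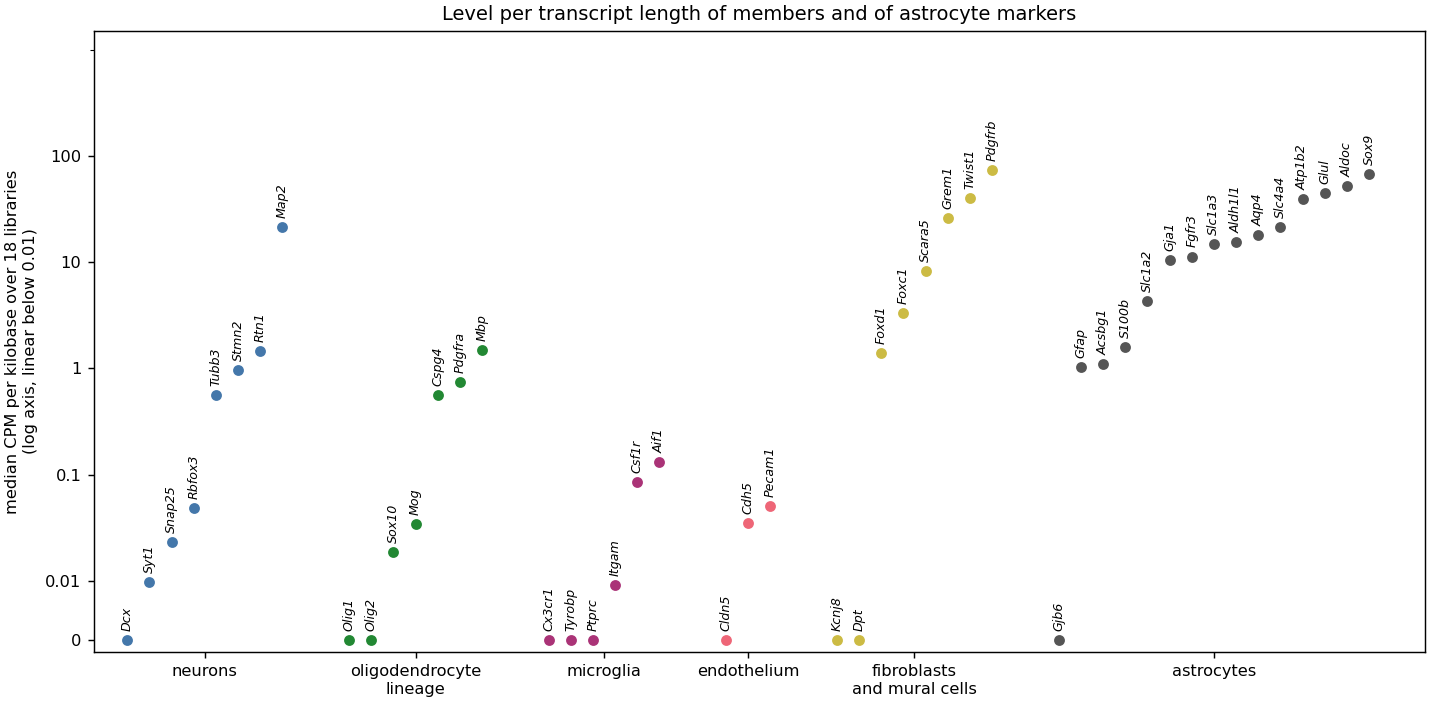
Each point is the median level over 18 libraries in CPM per kilobase of transcript (log axis, linear below 0.01) of a member or of one of 15 astrocyte markers, ordered within its list. Pdgfrb at 73.9 sits level with Sox9 at 67.9, and no microglial or endothelial member reaches Gfap at 1.03.

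Among the neuronal markers, Map2, a microtubule-associated protein of dendrites, was the one high gene. At 3 days it had 119, 123 and 120 CPM with hM3Dq, against 135, 135 and 175 CPM with mCherry. At 90 min Map2 had 138, 136 and 139 CPM with hM3Dq, 122, 147 and 170 CPM with rM3Ds, 172, 131 and 94.5 CPM with hM4Di, against 162, 138 and 135 CPM with EGFP. Its level thus differed by less than 2-fold over the 18 libraries, and only at 3 days did a receptor group lie wholly below its control.

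Stmn2, a regulator of microtubules in growing axons, and Rtn1, a reticulon of the endoplasmic reticulum, varied far more. Stmn2 had 0.0513, 0.117 and 0.0541 CPM with hM3Dq at 3 days, against 0.106, 0.119 and 0.0579 CPM with mCherry, all below the floor. Its levels at 90 min were 2.01, 1.99 and 2.08 CPM with hM3Dq, 1.88, 49.9 and 42.3 CPM with rM3Ds, 17.2, 2.07 and 2.00 CPM with hM4Di, against 46.6, 3.03 and 2.24 CPM with EGFP. The 3 high values belonged to the 3 libraries that stand apart and the intermediate one to hM4Di 1, while every other library at 90 min held about the same level. Its highest library was 24.9 times the median.

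Rtn1 followed the same pattern. It had 0.103, 0.293 and 0.162 CPM with hM3Dq at 3 days, against 0.689, 0.954 and 0.521 CPM with mCherry. The 2 groups did not overlap, but the hM3Dq values rest on 2, 5 and 3 counts. Rtn1 had too few counts to be tested with all 6 libraries at 3 days. Of all genes tested there, 24.9% did not overlap. At 90 min Rtn1 had 5.51, 5.19 and 5.34 CPM with hM3Dq, 6.49, 108 and 112 CPM with rM3Ds, 19.0, 3.84 and 7.21 CPM with hM4Di, against 40.5, 5.07 and 6.10 CPM with EGFP. The highest library was 21.2 times the median, and hM4Di 1 again lay between the libraries that stand apart and the rest.

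The genes most particular to neurons were low or absent. Dcx, a microtubule protein of newborn migrating neurons, had no count in 14 libraries and 0.0553, 0.124, 0.0526 and 0.0472 CPM in rM3Ds 2, rM3Ds 3, hM4Di 3 and EGFP 1, all below the floor. Syt1, the calcium sensor of synaptic vesicles, reached at most 0.283 CPM and Snap25, a protein of vesicle fusion, at most 0.316 CPM. Rbfox3, the splicing factor known as NeuN, had no count in the 6 libraries at 3 days and 0.0621 to 0.711 CPM at 90 min. Tubb3, the neuronal beta-tubulin, lay at 0.0579 to 0.176 CPM at 3 days and at 0.557 to 2.55 CPM at 90 min. Without Map2 the neuronal members summed to 0.256 to 160 CPM. Of 15 further neuronal markers, 6 were at or above the floor in every library, led by the enolase Eno2 at 79.2 to 148 CPM and the growth-cone protein Gap43 at 5.65 to 26.9 CPM, and 7 were below 1 CPM in every one.

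In the oligodendrocyte list Mbp, a major protein of myelin, was the highest. At 3 days it had 14.1, 12.2 and 13.6 CPM with hM3Dq, against 11.8, 12 and 12.5 CPM with mCherry. Its values at 90 min were 5.81, 7.25 and 7.11 CPM with hM3Dq, 6.60, 3.37 and 1.99 CPM with rM3Ds, 8.49, 5.31 and 5.27 CPM with hM4Di, against 1.37, 8.35 and 7 CPM with EGFP. All 6 libraries at 3 days were above every library at 90 min, and the 3 lowest values were those of the libraries that stand apart. The Mbp gene also gives transcripts that are used outside myelin, and counts per gene do not separate them.

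Pdgfra, the receptor through which precursor cells of the lineage receive platelet-derived growth factor, is also found in fibroblasts. It had 7.44, 7.32 and 7.69 CPM with hM3Dq at 3 days, against 8.43, 7.10 and 8.63 CPM with mCherry. At 90 min Pdgfra had 1.98, 3.44 and 2.54 CPM with hM3Dq, 4.89, 5.26 and 7.30 CPM with rM3Ds, 2.37, 2.98 and 2.32 CPM with hM4Di, against 3.73, 5.37 and 4.43 CPM with EGFP. The libraries with hM3Dq and with hM4Di lay below all EGFP libraries, those with rM3Ds did not, and the pattern did not follow the libraries that stand apart. Cspg4, a proteoglycan of precursor cells and pericytes, ranged over 2.08 to 6.51 CPM.

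The factors that define the lineage were nearly absent. Olig1, a basic helix-loop-helix factor, had no count in 11 libraries, 1.32 CPM in EGFP 1, 1.15 CPM in hM4Di 1, 0.435 CPM in rM3Ds 3 and 0.387 CPM in rM3Ds 2. In hM3Dq 2, hM4Di 3 and EGFP 2 at 90 min it had 0.0604, 0.0526 and 0.114 CPM, so the 4 libraries above the floor were the 3 that stand apart and hM4Di 1. Olig2, its close relative, had no count in 14 libraries and 0.283, 0.158, 0.124 and 0.0604 CPM in EGFP 1, hM4Di 1, rM3Ds 3 and hM3Dq 2, of which the first 2 were at or above the floor. Sox10, a factor of the whole lineage, reached at most 0.228 CPM and Mog, a protein on the surface of myelin, at most 0.277 CPM. The 7 members summed to 8.83 to 25.3 CPM. Of 13 further markers of the lineage 9 were below 1 CPM in every library, and the 2 highest were Cnp, a phosphodiesterase of myelin, at 63.8 to 105 CPM and the transcription factor Nkx2-2 at 5.81 to 16.5 CPM.

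All 6 microglial members were below 1 CPM in every library, and together they summed to 0.053 to 1.35 CPM. Csf1r, the receptor that microglia need to survive, had 0.107, 0.0637 and 0.118 CPM with hM3Dq at 3 days, against 0, 0.158 and 0.0606 CPM with mCherry. At 90 min Csf1r had 0.479, 0.351 and 0.561 CPM with hM3Dq, 0.464, 0.190 and 0.335 CPM with rM3Ds, 0.498, 0.737 and 0.560 CPM with hM4Di, against 0.448, 0.820 and 0.511 CPM with EGFP. Every library at 90 min was above every library at 3 days, where all 6 values were below the floor.

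Aif1, an actin-binding protein widely used to stain microglia, had 0.0513, 0 and 0.0541 CPM with hM3Dq at 3 days, against 0.053, 0.0596 and 0 CPM with mCherry. It had 0.128, 0.242 and 0.203 CPM with hM3Dq at 90 min, 0.114, 0.111 and 0.186 CPM with rM3Ds, 0.158, 0.130 and 0.212 CPM with hM4Di, against 0.0944, 0.114 and 0.172 CPM with EGFP. These are 1 to a few counts a library and carry no order among the groups at 90 min.

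The other microglial members were rarer still. Cx3cr1, the fractalkine receptor, had no count in 14 libraries and 0.158, 0.0864, 0.102 and 0.0571 CPM in hM4Di 3, hM4Di 2, hM3Dq 3 and EGFP 2 at 90 min. Tyrobp, a signalling adaptor of myeloid receptors, had counts in hM4Di 1 and EGFP 1 alone, at 0.197 and 0.330 CPM, and none in the other 16 libraries. Ptprc, a phosphatase of all white blood cells, had no count in 12 libraries and 0.0508 to 0.105 CPM in the other 6, below the floor throughout. Itgam, an integrin chain of myeloid cells, reached at most 0.316 CPM.

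Of 16 further microglial markers, 4 were below the floor in every library, among them the purinergic receptor P2ry12 with at most 0.079 CPM, a gene named after its values were seen. The transcription factor Sall1 was at 49.4 to 115 CPM, a level that the 6 members, at 1.35 CPM or less in sum, did not share, and 11 of the 16 were below 1 CPM in every library.

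The 3 endothelial members summed to 0.0541 to 0.996 CPM. Pecam1, an adhesion protein between endothelial cells, had 0.103, 0.176 and 0.0541 CPM with hM3Dq at 3 days, against 0.159, 0.179 and 0.0579 CPM with mCherry. At 90 min Pecam1 had 0.124, 0.0604 and 0.305 CPM with hM3Dq, 0.114, 0.608 and 0.249 CPM with rM3Ds, 0.276, 0.259 and 0.316 CPM with hM4Di, against 0.378, 0.171 and 0 CPM with EGFP. Libraries of 1 group were as far apart as libraries of different groups.

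Cdh5, the cadherin of endothelial junctions, had no count in any library at 3 days. At 90 min Cdh5 had 0, 0.121 and 0.356 CPM with hM3Dq, 0.171, 0.166 and 0 CPM with rM3Ds, 0.158, 0.216 and 0.526 CPM with hM4Di, against 0.236, 0.171 and 0.23 CPM with EGFP. Cldn5, a claudin of the blood-brain barrier, likewise had no count at 3 days, and at 90 min it had 0, 0.181 and 0 CPM with hM3Dq, 0, 0.221 and 0 CPM with rM3Ds, 0.079, 0.345 and 0.105 CPM with hM4Di, against 0, 0.0571 and 0.115 CPM with EGFP. Further endothelial markers were higher, with the angiopoietin receptor Tek at 2.99 to 59.5 CPM and the organic anion transporter Slco1a4 at 3.13 to 29.1 CPM, and 5 of the 13 were below 1 CPM in every library.

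The fibroblast and mural members formed the strongest list, with sums of 410 to 1051 CPM. Pdgfrb, the platelet-derived growth factor receptor of pericytes and fibroblasts, had 444, 425 and 478 CPM with hM3Dq at 3 days, against 504, 483 and 517 CPM with mCherry. At 90 min Pdgfrb had 337, 327 and 288 CPM with hM3Dq, 328, 464 and 526 CPM with rM3Ds, 331, 290 and 305 CPM with hM4Di, against 483, 377 and 333 CPM with EGFP. The receptor was lower with hM3Dq than with mCherry in every library at 3 days, and at 90 min the highest values were those of the libraries that stand apart.

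Grem1, a secreted antagonist of bone morphogenetic proteins, had 400, 384 and 399 CPM with hM3Dq at 3 days, against 330, 355 and 435 CPM with mCherry. At 90 min Grem1 had 15.3, 19.9 and 14.4 CPM with hM3Dq, 21.9, 229 and 232 CPM with rM3Ds, 28.1, 18.2 and 13.3 CPM with hM4Di, against 187, 27.0 and 22.3 CPM with EGFP. It was high in all 6 libraries at 3 days and, at 90 min, in the 3 libraries that stand apart, with no value between 28.1 and 187 CPM.

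Scara5, a scavenger receptor that takes up ferritin and marks some fibroblasts, had 43.7, 39.5 and 38.7 CPM with hM3Dq at 3 days, against 35.2, 34.1 and 29.4 CPM with mCherry, without overlap. At 90 min Scara5 had 16.1, 14.5 and 14.3 CPM with hM3Dq, 16.9, 178 and 179 CPM with rM3Ds, 41.5, 13.4 and 16.6 CPM with hM4Di, against 189, 20.9 and 18 CPM with EGFP. Here too the libraries that stand apart were the 3 highest and hM4Di 1 came next.

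Foxd1 and Foxc1 are forkhead factors of stromal and meningeal cells. Foxd1 had 6.82, 8.61 and 6.60 CPM with hM3Dq at 3 days, against 8.80, 9.01 and 5.21 CPM with mCherry. Its levels at 90 min were 6.74, 5.80 and 5.78 CPM with hM3Dq, 7.34, 29.4 and 27.4 CPM with rM3Ds, 6.63, 5.35 and 7.95 CPM with hM4Di, against 19.8, 7.65 and 6.56 CPM with EGFP. Foxc1 ranged over 10.6 to 14.5 CPM at 3 days and 17.3 to 32.9 CPM at 90 min, and both genes were highest in the 3 libraries that stand apart.

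Twist1, a basic helix-loop-helix factor of mesenchymal cells, showed another pattern. It had 37.6, 40.7 and 35.3 CPM with hM3Dq at 3 days, against 39.0, 40.9 and 27.4 CPM with mCherry. At 90 min Twist1 had 105, 107 and 110 CPM with hM3Dq, 71.2, 63.2 and 54.4 CPM with rM3Ds, 69.8, 65.9 and 80.8 CPM with hM4Di, against 68.0, 70.9 and 63.9 CPM with EGFP. The hM3Dq libraries at 90 min were the 3 highest of all 18, and the libraries that stand apart were not high.

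Kcnj8, a potassium channel subunit of pericytes, had 0.105 CPM in hM4Di 3 and 0.0472 CPM in EGFP 1 and no count elsewhere. Dpt, the matrix protein dermatopontin of fibroblasts, had 0.103 CPM in hM3Dq 1 and 0.053 CPM in mCherry 1 at 3 days, 0.0508 CPM in hM3Dq 3 at 90 min and no count in the other 15 libraries. Both were below the floor throughout. The further fibroblast list summed to 1436 to 3411 CPM, led by the collagen chains Col1a1 at 650 to 1911 CPM and Col1a2 at 94.2 to 947 CPM. Of 12 further mural markers 6 were at or above the floor in every library, led by the contractile genes Tagln at 52.8 to 427 CPM and Acta2 at 54.1 to 424 CPM.

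**Figure D3:**
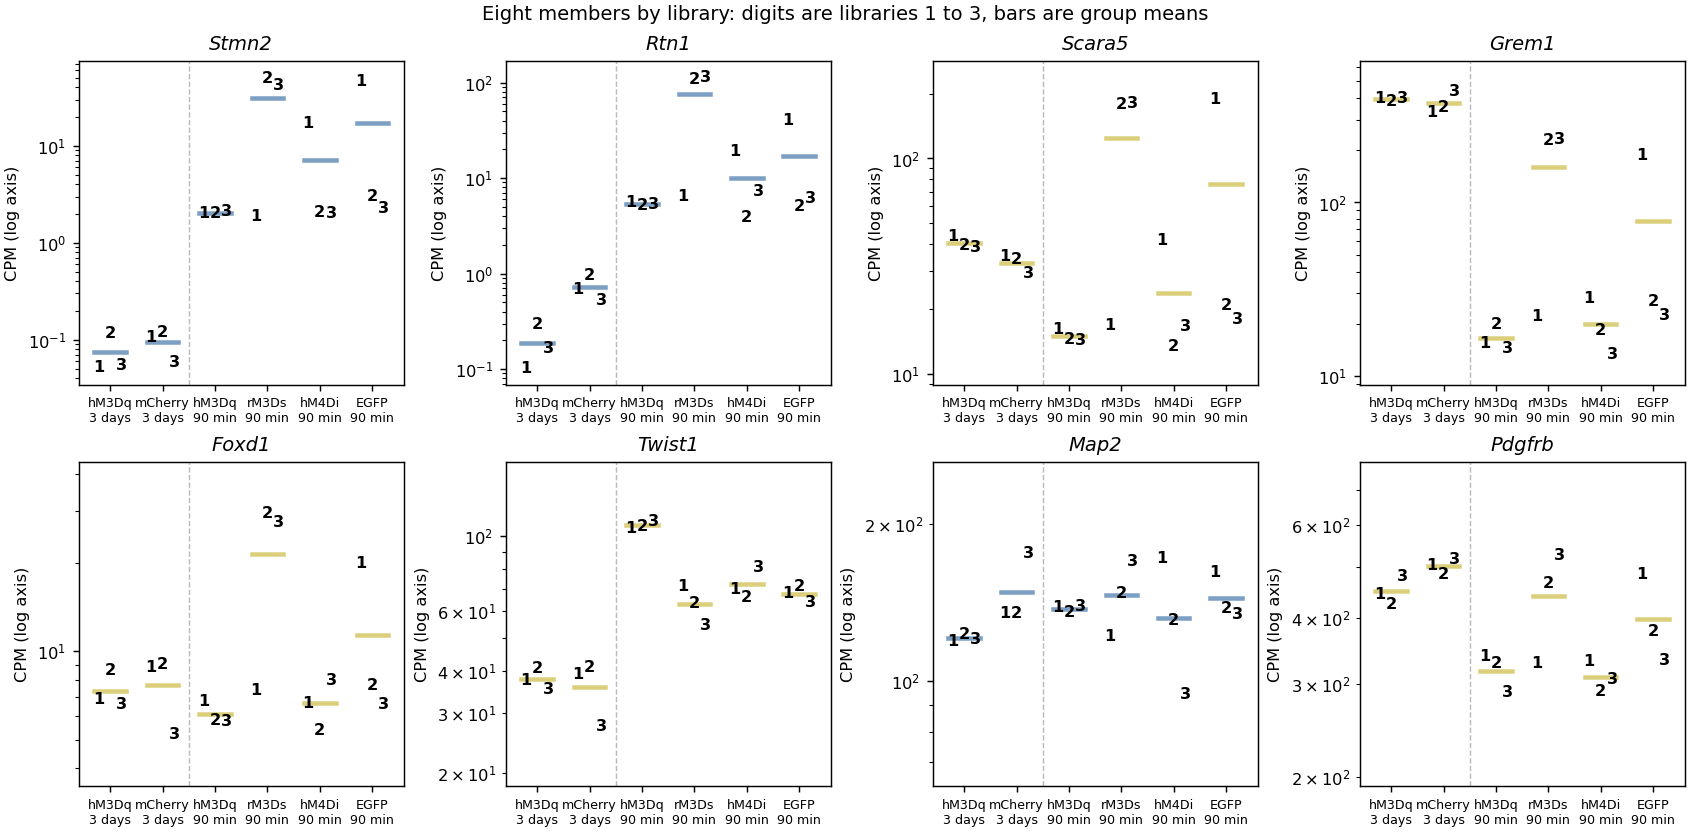
Each panel shows CPM (log axis) of one member in the 18 libraries, with digits for libraries 1 to 3 and bars for group means, the 3-day groups left of the dashed line. Stmn2, Rtn1, Scara5, Grem1 and Foxd1 are high in EGFP 1, rM3Ds 2 and rM3Ds 3, Twist1 is highest with hM3Dq at 90 min (105 to 110 CPM), and Grem1 reaches 330 to 435 CPM at 3 days.

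Taking the 90-min libraries one by one, 8 of the 14 members that passed the filter on low counts were higher in EGFP 1, rM3Ds 2 and rM3Ds 3 than in any of 8 others (hM4Di 1 set aside), namely Map2, Stmn2, Rtn1, Pdgfrb, Scara5, Grem1, Foxc1 and Foxd1. Cspg4 and Mbp were lower in all 3. Of all 13584 genes tested at 90 min, 13.2% were higher and 11.4% lower in this sense, 24.6% in all. The libraries were singled out by a component computed from the same genes, so these counts describe them and test nothing. The margins were not alike in the 2 groups concerned: Rtn1 was 16.6 and 17.2 times rM3Ds 1 in rM3Ds 2 and 3 but 6.64 times the next EGFP library in EGFP 1, while Scara5 was 10.6 times in both rM3Ds libraries and 9.02 times in EGFP 1.

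Marker genes outside the list, picked here after their values were seen, went with these libraries in both directions, and their part in the members' levels was not tested. Of the 118 further markers 21 were higher, 12 lower and 85 overlapping. Only 66 of the 118 passed the filter on low counts at 90 min. The shares of all genes tested, 13.2% higher and 11.4% lower, therefore have another base. The astrocyte list itself was split, with 4 of 15 higher and 4 lower. Gfap was 9.53 to 23.1 CPM in the 3 libraries and 1.94 to 3.93 CPM in the 8 others, whereas Slc1a2, an astrocyte glutamate transporter, was lower, at 13.3 to 39.7 CPM in the 3 libraries and 49.5 to 74.0 CPM in the 8 others. Nes, an intermediate filament of progenitors, was 622 to 779 CPM in the 3 libraries and 202 to 367 CPM in the 8 others. Col1a2 was lower, at 94.2 to 219 CPM in the 3 libraries and 452 to 626 CPM in the 8 others, although Scara5 and Grem1 from the same fibroblast and mural class were higher. Of the endothelial list Tek was lower, at 2.99 to 5.16 CPM in the 3 libraries and 18.4 to 23.2 CPM in the 8 others, and Ly6c1 higher, at 17.1 to 26.0 CPM in the 3 libraries and 1.48 to 3.20 CPM in the 8 others.

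Levels of several members differed between the sampling times. The median level of Grem1 was 392 CPM at 3 days and 22.1 CPM at 90 min, a ratio of 17.7. Ratios were 2.12 for Scara5, 2.11 for Pdgfra, 1.98 for Mbp and 1.45 for Pdgfrb, all higher at 3 days. For Scara5 this holds for the medians only, since its mean was 36.8 CPM at 3 days and 59.9 CPM at 90 min, with the 3 libraries that stand apart at 178 to 189 CPM. Lower at 3 days were Twist1 with a ratio of 0.544, Csf1r with 0.174, Tubb3 with 0.0758, Rtn1 with 0.0647 and Stmn2 with 0.0379. At 3 days Csf1r and Stmn2 were below the floor in all 6 libraries. Tubb3 had 1 to 3 counts and Rtn1 2 to 16 counts in a library there. The ratios of these genes, unlike that of Twist1, rest on few counts and are approximate. The times were deposited as separate tables with controls that carried different proteins, so time and table cannot be told apart and no test was made.

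The promoters of Grem1 and Foxd1, which were high in the same 90-min libraries, and of Twist1, the one member called below, are shown because E-boxes, written CANNTG, are the sites that basic helix-loop-helix factors such as Twist1 and Olig2 read. The sequences are the 250 bases before the start of each gene from RefSeq (GRCm38.p6), which held 21 of the 32 members, at chr13:98353995-98354244 on the plus strand for Foxd1, chr2:113758649-113758898 on the minus strand for Grem1 and chr12:33957421-33957670 on the plus strand for Twist1, with CANNTG in capitals.
Foxd1: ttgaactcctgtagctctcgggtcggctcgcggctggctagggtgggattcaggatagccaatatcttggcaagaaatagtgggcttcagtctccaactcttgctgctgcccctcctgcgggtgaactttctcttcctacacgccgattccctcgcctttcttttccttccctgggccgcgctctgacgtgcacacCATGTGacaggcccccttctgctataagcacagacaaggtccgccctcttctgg
Grem1: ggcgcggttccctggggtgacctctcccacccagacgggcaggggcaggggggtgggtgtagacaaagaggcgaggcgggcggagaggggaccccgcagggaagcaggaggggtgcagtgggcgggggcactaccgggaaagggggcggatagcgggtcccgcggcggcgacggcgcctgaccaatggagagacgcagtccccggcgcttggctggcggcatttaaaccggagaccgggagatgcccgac
Twist1: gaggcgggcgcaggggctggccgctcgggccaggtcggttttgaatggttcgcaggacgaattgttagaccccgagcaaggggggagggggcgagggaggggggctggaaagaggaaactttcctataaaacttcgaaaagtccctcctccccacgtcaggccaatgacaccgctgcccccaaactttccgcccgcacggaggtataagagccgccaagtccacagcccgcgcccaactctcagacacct
Foxd1 held 1 E-box and Grem1 and Twist1 none in these windows, whereas 66.2% of 32851 promoter windows of the same length held at least 1. The AP-1 site TGANTCA, searched in the same way, was in none of the 3 and in 6.75% of all windows. Both motifs read the same on either strand, no 2 matches overlapped, and a match is a description of letters and not a site.

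The comparison of hM3Dq with EGFP at 90 min asks what 90 min of Gq signalling did. Of 13584 genes tested 0.788% passed a threshold of 0.05 on the adjusted p (Benjamini-Hochberg) of edgeR's quasi-likelihood test and are named called below, 0.758% higher and 0.0294% lower. Of the 14 members tested 1 was called, Twist1, which rose with hM3Dq. It averaged 108 ± 2.49 CPM with hM3Dq and 67.6 ± 3.53 CPM with EGFP (SD, n = 3 each), a log2 fold change of 0.67 ± 0.107 (SE, edgeR adjusted p = 0.0149). The fold was 0.66 ± 0.117 (edgeR adjusted p = 0.0292) without the libraries that stand apart, EGFP 1 among them. Leaving out 1 library ended the call except for EGFP 1: the edgeR adjusted p was 0.087, 0.0834 and 0.0681 without hM3Dq 1, 2 and 3, and 0.0455, 0.0632 and 0.112 without EGFP 1, 2 and 3, while the fold stayed between 0.63 and 0.71. Deviations from the group means correlated at 0.133, 0.162 and 0.123 for same-numbered hM3Dq and EGFP libraries. In a fit of all 12 libraries at 90 min, blocked on that number, the fold was 0.67 ± 0.119 (edgeR adjusted p = 0.0606). No member and 66 genes in all were then called, against 107 genes without the block. Same-numbered rM3Ds and EGFP libraries, also in that fit, correlated at -0.764, -0.573 and -0.566, so a shared number did not go with a shared deviation in all groups.

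Groups did not overlap for 5 of the 14 members, with Twist1 higher and Stmn2, Pdgfra, Scara5 and Grem1 lower with hM3Dq, against 8.26% of all genes tested higher and 6.46% lower. For Stmn2, Scara5 and Grem1 the margin was wide against EGFP 1 and narrow against EGFP 2 and 3. Without the libraries that stand apart their log2 fold changes were -0.39 ± 0.888, -0.39 ± 0.409 and -0.59 ± 0.274, against -3.10 ± 1.44, -2.35 ± 1.02 and -2.26 ± 0.928 with them. None of these passed the test in either fit. The 14 tested members had a median log2 fold change of -0.336 and all genes tested one of -0.00337, and without the libraries that stand apart the members' median was -0.186.

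Among 118 further lineage and astrocyte markers 66 were tested and 1 was called, Flt1, a receptor of vascular endothelial growth factor, named here after its values were seen. Flt1 had 21.5, 22.6 and 18 CPM with hM3Dq at 90 min, against 9.87, 7.65 and 6.55 CPM with EGFP, a log2 fold change of 1.36 ± 0.256 (edgeR adjusted p = 0.0351), and every hM3Dq library was above every EGFP library. The log2 fold change of Flt1 was 1.53 ± 0.235 without the libraries that stand apart. The endothelial members Pecam1, Cdh5 and Cldn5 had levels too low for the test. None of the 66 further markers tested was called with rM3Ds or hM4Di, and none of 55 with hM3Dq at 3 days.

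With rM3Ds, which raises cyclic AMP through Gs, 0.0147% of the 13584 genes were called and none of the 14 tested members, also none with DESeq2 or limma-voom and none at an unadjusted p below 0.05, which 575 of all genes tested had. The 3 members with the smallest p were Rtn1, Csf1r and Foxd1, and DESeq2 gave no adjusted p for Rtn1, so it could not call this gene. Rtn1 averaged 75.4 ± 59.7 CPM with rM3Ds and 17.2 ± 20.2 CPM with EGFP (SD, n = 3 each), a log2 fold change of 2.12 ± 1.01, Csf1r had a log2 fold change of -0.88 ± 0.449 and Foxd1 one of 0.91 ± 0.502, each with an edgeR adjusted p of 1. Of the rM3Ds libraries 2 and of the EGFP libraries 1 stand apart, and without all 3 the log2 fold changes were 0.21 ± 0.722 for Rtn1, -0.53 ± 0.616 for Csf1r and 0.04 ± 0.277 for Foxd1, where the spread of the 1 remaining rM3Ds library is taken from the other groups. No member had groups that did not overlap, against 7.49% of all genes tested, 3.89% higher and 3.6% lower. The median log2 fold change was 0.255 over the 14 tested members and -0.0159 over all genes tested, and the members' median turned to -0.171 without the libraries that stand apart.

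With hM4Di, which lowers cyclic AMP through Gi, 0% of the 13584 genes were called, with 745 at an unadjusted p below 0.05, 28 called by DESeq2 and none by limma-voom. None of the 14 tested members was called by any of the 3 tools, and 1, Pdgfra, had an unadjusted p below 0.05. DESeq2 gave no adjusted p for Grem1, so it could not call this gene. Pdgfra averaged 2.55 ± 0.369 CPM with hM4Di and 4.51 ± 0.823 CPM with EGFP (SD, n = 3 each), a log2 fold change of -0.82 ± 0.26 (edgeR adjusted p = 0.833), and all hM4Di libraries were below all EGFP libraries. Pdgfrb averaged 309 ± 20.8 CPM with hM4Di and 398 ± 77.1 CPM with EGFP, again without overlap (log2 fold change -0.36 ± 0.177, edgeR adjusted p = 0.833). The log2 fold change of Pdgfrb was -0.21 ± 0.127 without the libraries that stand apart (edgeR adjusted p = 0.606) and -0.19 ± 0.176 without EGFP 1 alone (edgeR adjusted p = 0.78). Groups did not overlap for 8.44% of all genes tested, 4.44% lower with hM4Di, and for these 2 of 14 members. Grem1 averaged 19.9 ± 7.49 CPM with hM4Di and 78.7 ± 93.6 CPM with EGFP, a log2 fold change of -1.98 ± 0.911 with all libraries and of -0.32 ± 0.271 without those that stand apart (edgeR adjusted p = 0.833 and 0.701). Over the 14 tested members the median log2 fold change was -0.327, and over all genes tested -0.00919. The members' median was -0.0878 without the libraries that stand apart.

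The 3 comparisons at 90 min share the EGFP libraries. Pdgfra had log2 fold changes of -0.76 ± 0.262 with hM3Dq, 0.37 ± 0.256 with rM3Ds and -0.82 ± 0.26 with hM4Di, none past the threshold. Without the libraries that stand apart Pdgfra had -0.89 ± 0.263 with hM3Dq, -0.01 ± 0.347 with rM3Ds and -0.95 ± 0.26 with hM4Di, so the positive value with rM3Ds was gone. Twist1 had log2 fold changes of 0.67 ± 0.107 with hM3Dq, -0.10 ± 0.107 with rM3Ds and 0.09 ± 0.107 with hM4Di. The value with rM3Ds was 0.07 ± 0.154 without the libraries that stand apart, and the difference between receptors was not tested here.

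**Figure D4:**
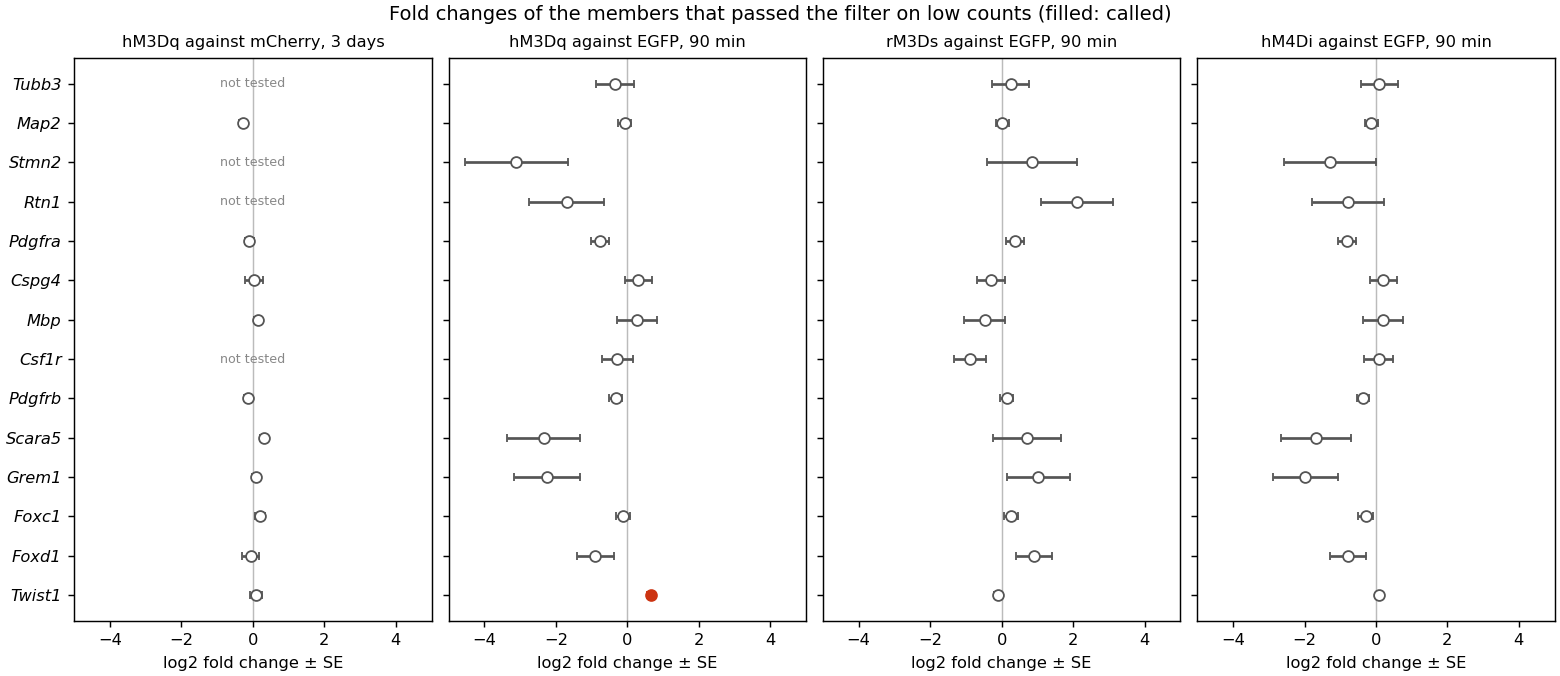
Points give the log2 fold change of each member that passed the filter on low counts in each of the 4 comparisons, bars the standard error, and a filled red point a call at adjusted p below 0.05. Twist1 with hM3Dq at 90 min, at 0.67, is the one call, and the wide bars of Stmn2, Rtn1, Scara5 and Grem1 at 90 min go with the libraries that stand apart.

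At 3 days, the comparison of hM3Dq with mCherry asks what remained after the ligand was removed. With edgeR 0% of 12807 genes were called, with 1540 at an unadjusted p below 0.05, 156 called by DESeq2 and 1 by limma-voom, and none of the 10 members tested was called by any of these tools. Unadjusted p was below 0.05 for 2 members. Scara5 averaged 40.6 ± 2.67 CPM with hM3Dq and 32.9 ± 3.08 CPM with mCherry (SD, n = 3 each), a log2 fold change of 0.31 ± 0.113 (edgeR adjusted p = 0.349). Map2 averaged 121 ± 1.99 CPM with hM3Dq and 148 ± 23.5 CPM with mCherry, a log2 fold change of -0.28 ± 0.108 (edgeR adjusted p = 0.373). Pdgfrb averaged 449 ± 27.1 CPM with hM3Dq and 501 ± 16.9 CPM with mCherry, a log2 fold change of -0.15 ± 0.0868 (edgeR adjusted p = 0.487). Groups did not overlap for these 3 of 10 members, against 24.9% of all genes tested, 12% higher and 12.9% lower. The 10 members had a median log2 fold change of 0.0572 and all genes tested one of -0.00699.

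Without mCherry 3, the 3-day library that stands apart, 9.72% of 12929 genes were called and 2 of 11 tested members. Grem1 was higher with hM3Dq, with a log2 fold change of 0.20 ± 0.0563 (edgeR adjusted p = 0.0386). With all 6 libraries its log2 fold change was 0.09 ± 0.106 (edgeR adjusted p = 0.69), and the groups overlapped. The library left out, mCherry 3, had 435 CPM, above every hM3Dq library at 3 days. The call depends on its removal and is a description. The other called member was Rtn1, with a log2 fold change of -2.13 ± 0.543 (edgeR adjusted p = 0.0225). However, Rtn1 had 2, 5 and 3 counts with hM3Dq, against 13 and 16 counts in mCherry 1 and 2. It passed the filter on low counts through mCherry alone, and not with all 6 libraries, so its direction was fixed by the filter and the value is a description. The share of members called is to be read against a background in which nearly 1 gene in 10 was called. The median log2 fold change of the tested members was -0.0773 in this fit, of the opposite sign to that with all 6 libraries. Scara5 had a log2 fold change of 0.22 ± 0.0742 without mCherry 3 (edgeR adjusted p = 0.0678). That of Map2 was -0.17 ± 0.0509 (edgeR adjusted p = 0.0525) and that of Pdgfrb -0.14 ± 0.0614 (edgeR adjusted p = 0.15).

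The change of the hM3Dq effect between 90 min and 3 days, each effect against its own control, was called for 0.396% of 13391 genes, 0.0149% higher and 0.381% lower, and for none of the 13 members tested, also none with DESeq2 or limma-voom. The median change was 0.34 on the log2 scale over the 13 members and 0.0151 over all genes tested, and 4 members had an unadjusted p below 0.05, as had 1303 of all genes tested. Twist1 had a change of -0.58 ± 0.193 on the log2 scale (edgeR adjusted p = 0.352), Scara5 one of 2.67 ± 0.99 (0.425) and Grem1 one of 2.35 ± 0.882 (0.428). DESeq2 gave no adjusted p for Scara5 and Grem1, so it could not call them.

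Without the libraries that stand apart at either time the change was called for 3.72% of 13482 genes and for 4 of 14 tested members. The effect on Twist1 was lower at 3 days than at 90 min by a log2 change of -0.76 ± 0.106 (edgeR adjusted p = 7e-04), and that on Rtn1 by one of -2.06 ± 0.47 (edgeR adjusted p = 0.0231). The effect on Grem1 was higher at 3 days by 0.78 ± 0.154 (edgeR adjusted p = 0.00958) and that on Scara5 by 0.61 ± 0.132 (edgeR adjusted p = 0.0173). For Rtn1 the 3-day part rests on the few counts given above. With all libraries the change of Rtn1 was -0.23 ± 1.14 (edgeR adjusted p = 0.959). The libraries left out were singled out from these same data, so the 4 calls are descriptions. The members' median change was -0.0205 in this fit, of the opposite sign to that with all libraries. Leaving out mCherry 3 alone gave 1 called member, Twist1, with a change of -0.75 ± 0.101 (edgeR adjusted p = 0.00826). Of 118 further markers 62 were tested and 1 was called with all libraries, Flt1, with a change of -1.56 ± 0.24 (edgeR adjusted p = 0.0132). Without the libraries that stand apart the change of Flt1 was -1.62 ± 0.19.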

How the data were processed

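Messenger RNA of 18 libraries was enriched by its poly-A tail and sequenced, per the labels' protocols. The authors deposited estimated counts of each gene without normalisation, with 12 libraries at 90 min in 1 table and 6 libraries at 3 days in another. The submitters' processing notes name mm39 as the build and list Salmon 1.8.0 and fastp 0.23.4, without role or order. How transcripts were summed to genes and whether strand was used are not given in the sources used here, so overlapping and antisense genes and near-identical paralogs are uncertain. Fractional values made up 55.9% of the 90-min table and 30.5% of the 3-day table.

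Identifiers were matched to symbols by Entrez number in a RefSeq gene table (21978 of 22078, or 99.55%). Transcript lengths and promoters came from GRCm38, and no coordinate refers to the deposited counts. Estimated counts were rounded for the tests. Groups were taken from the labels. Tests used edgeR 4.0.16 in R 4.3.3 (robust quasi-likelihood, TMM, default filter on low counts), with p-values adjusted over the whole table of tested genes. A single fit held the 4 groups at 90 min and another the 2 groups at 3 days, and the change between times came from an interaction over the 12 libraries of hM3Dq and its controls. Of the 32 members 14 passed the filter at 90 min, 10 at 3 days and 13 for the change, 10 passed in every fit and 18 in none. A member that passed through 1 high group had to differ, so counts over tested members are given as descriptions.

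Alternatives were DESeq2 1.42.0, limma-voom (limma 3.58.1), DESeq2's size factors, no filter, a replicate block, only the groups compared, leaving out each library, and leaving out those that stand apart. Members given with every library were the 2 with the highest mean CPM in each lineage, called members, and those whose highest library was over 10 times their median. Fold changes are given for called members or the 3 with the smallest p. Scara5, Foxd1, Pdgfra in all comparisons and the other genes with values were chosen after the values were seen. The members and the 10 further lists of 118 markers were chosen with earlier results of these data known. Deviations from the group means correlated at 0.133, 0.162 and 0.123 for same-numbered hM3Dq and EGFP libraries at 90 min, so this comparison is also given with a replicate block; the labels do not say what a number marks. No pair of libraries agreed within counting noise, the lowest chi-square per gene being 2.66. The fitting steps were tested on simulated data. Chrm4, Mmp3, mitochondrial transcripts and some further markers are not reported here.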

Additional observations from a re-analysis of the deposited data

How the results depend on the processing

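The fold change of Twist1 with hM3Dq at 90 min kept its direction under all 14 alternatives, with adjusted p from 5.37e-06 (DESeq2) to 0.112. With a replicate block its adjusted p was 0.0606. Among the members with the smallest p in each comparison no direction reversed wherever an alternative gave an adjusted p. Without the libraries that stand apart the rM3Ds fold changes of Pdgfra and Twist1, neither called, turned to -0.01 and 0.07. With hM3Dq at 90 min 107 genes were called, 232 with DESeq2, 66 with a replicate block, 304 without the libraries that stand apart and hM4Di 1 (chosen after seeing the data), and 50 to 103 leaving out 1 library. The members called there, 1, became 0 with the replicate block and 0 to 1 leaving out 1 library. With rM3Ds 2 genes were called, 55 with DESeq2, 4 with the replicate block, 0 with only the 2 groups in the fit, 0 without the libraries that stand apart, 7 without those and hM4Di 1, and 2 to 115 leaving out 1 library, with 115 without rM3Ds 1. With hM4Di 0 genes were called, 28 with DESeq2 and 2 without the libraries that stand apart and hM4Di 1. At 3 days 0 genes were called, 156 with DESeq2, 1 with limma-voom, 1 with no filter on low counts, and 0 to 1257 leaving out 1 library, where mCherry 3 gave the highest count and 0 to 2 members were called. The change between times was called for 53 genes, 202 with DESeq2, 501 with 4 members without the libraries that stand apart, and 28 to 170 with 0 to 1 members leaving out 1 library. The causes were not tested.

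Beyond hM3Dq and EGFP at 90 min, same-numbered libraries of compared groups did not all correlate above 0.1 in their deviations: the range was -0.764 to 0.373 over all 18 pairs at 90 min and 0.0221 to 0.041 over 3 pairs at 3 days. At 90 min 3 of 12 libraries, and at 3 days 6 of 6, correlated best with their own number, a hint from the data and not from the design. Depth limits the members under the floor of 3 counts, for which no difference was detectable.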

Other observations

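Markers of neural progenitors, outside the 32 genes, were among the highest of all lineage markers. Vim, an intermediate filament gene of progenitors and many cultured cells, was at 2670 to 3386 CPM in the 6 libraries at 3 days and at 4741 to 6444 CPM in the 12 libraries at 90 min. Egfr, the epidermal growth factor receptor, was at 44.0 to 60.2 CPM at 3 days and 108 to 217 CPM at 90 min, and Sox2, a factor of neural progenitors and astrocytes, at 121 to 162 CPM at 3 days and 170 to 230 CPM at 90 min. Fabp7, a fatty acid binding protein of radial glia, was at 52.6 to 84.6 CPM in EGFP 1, rM3Ds 2 and rM3Ds 3, at 17.1 CPM in hM4Di 1 and at 2.84 to 5.23 CPM in the 8 other libraries at 90 min. Hes5, a Notch target of progenitors, was below 1 CPM in every library.

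The contractile gene Cnn1 was at 0.359 to 0.879 CPM at 3 days and at 6.10 to 24.1 CPM at 90 min, a ratio of medians of 0.0376. Of the 12 further mural markers 4 were below 1 CPM in every library, among them the pericyte genes Rgs5, Abcc9 and Higd1b. Others of the same list were higher, such as Notch3 with a mean of 57.6 CPM and Mcam with 5.87 CPM. Pdgfrb, which pericytes also carry, was the highest member. Of 6 markers of ependyma and choroid plexus only Foxj1, a factor of ciliated cells, was above 1 CPM in any library, at 38.2 to 64.3 CPM at 3 days and 102 to 282 CPM at 90 min, and the choroid plexus gene Ttr reached at most 0.124 CPM. Ccdc153, the next by mean level, lay at 0.0575 to 0.371 CPM. The 5 markers of red blood cells summed to 0.263 CPM at most, with Alas2 at up to 0.203 CPM. Lyz2, a lysozyme of myeloid cells, was at 1.99 to 7.95 CPM in the 3 libraries that stand apart at 90 min, at 4.42 CPM in hM4Di 1 and at 0.121 to 0.626 CPM in the 8 others. These genes were named after their values were seen, and differences between times were not tested.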
